A study of Homo sapiens with 58 samples.

Results

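The HOX genes encode homeodomain transcription factors that give cells their position along the head-to-tail axis, and in human they lie in 4 clusters, HOXA, HOXB, HOXC and HOXD. Within a cluster the order of the genes follows the order of the body regions in which they act: anterior paralogs at one end are used in the hindbrain and neck, and posterior paralogs at the other end in the trunk, limbs and genital region. Neural crest that builds the upper face and jaw is known to lack HOX expression, whereas crest of the second pharyngeal arch and further back uses anterior paralogs such as HOXA2. Accessible chromatin in the 4 clusters was examined in cranial neural crest cells (CNCCs). The assay was ATAC-seq, which reads open DNA as the places where Tn5 transposase can insert adapters. A regulatory element (RE), one of the 151457 regions counted by the study, was taken as a HOX RE where its midpoint lay inside, or within 5 kb of, one of 38 GENCODE release 44 HOX genes. This rule gave 68 HOX REs of 151457 in all, which is 0.0449% of REs.

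The cells were made from the human embryonic stem cell line H9, either wild type (WT) or edited so that endogenous SOX9, a transcription factor of the crest and of cartilage, carried a dTAG degradation tag. The edited lines are the single-cell clones S9CC13 and S9CC47, and the compound dTAGV-1 recruits a ubiquitin ligase to the tagged SOX9 and lowers it. The dose series held 7 SOX9-tagged samples (4 of S9CC13 and 3 of S9CC47, each a separate differentiation of its clone) at each of 0, 0.5, 1.6, 5, 16 and 500 nM for 48 h, labelled with 100, 77.9, 51.7, 25.8, 8.14 and 0.95% of the untreated SOX9 level. Differentiation batch R6 holds samples of both clones. The other samples were 4 WT samples at 0 or 500 nM for 48 h, and 12 samples of a time course (24 h of vehicle, or 3 h or 24 h of 500 nM), 2 per genotype and treatment. The tagged time-course samples are titled S9CC13, while their count columns for differentiation R5 name S9CC47. All cells of a sample were pooled in 1 library, so that fewer cells with an open RE and less opening per cell cannot be told apart.

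Libraries held 22905782 to 81040023 counts in REs, of which HOX REs took 0.0170 to 0.0276%, and the median HOX RE had 93 counts per library (all REs, 118). The promoter REs of the CNCC markers TFAP2A, TFAP2B, TWIST1, NR2F1, ALX1, PRRX1, SOX9 and SNAI2 (8 of 8 present) stood at 21.5 to 121 CPM per kb at 0 nM. CPM per kb, the scale of levels throughout, is the count scaled to library size by the TMM method and divided by the length of the RE. No promoter RE was counted for POU5F1, NANOG or DPPA2, while LIN28A had one at 34.1 CPM per kb and DPPA4 one at 7.85. Of the trunk mesoderm markers, TBX6 stood at 54.9 CPM per kb, MEOX1 at 11.1, TBXT at 3.42 and MSGN1 at 2.59, and PAX1 had no promoter RE. One library stood apart: at 5 nM, replicate 6 of S9CC47 correlated with its own 0 nM sample (deviations from the group means over 75728 REs) at only 0.118, against 0.711 on average over the 7 pairs at that dose.

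A set of 3 HOX REs carries most of what follows, and 300 bases from the middle of each are given on the plus strand of hg38. They were picked by their changes at 500 nM. HOXA-5 was the only HOX RE called lower (adjusted p under 0.05, edgeR), HOXC-16 rose most and HOXD-17 was the most accessible RE called higher. REs are numbered from the anterior end of each cluster. In HOXA-5 (chr7:27109380-27109679) the capitals mark the only SOX core motif of the RE, searched as ACAATG or ACAAAG on both strands. In HOXC-16 (chr12:53939701-53940000) and HOXD-17 (chr2:176098009-176098308) the capitals mark CpG dinucleotides, 31 and 10 in number, against 1 in the HOXA-5 stretch.
HOXA-5: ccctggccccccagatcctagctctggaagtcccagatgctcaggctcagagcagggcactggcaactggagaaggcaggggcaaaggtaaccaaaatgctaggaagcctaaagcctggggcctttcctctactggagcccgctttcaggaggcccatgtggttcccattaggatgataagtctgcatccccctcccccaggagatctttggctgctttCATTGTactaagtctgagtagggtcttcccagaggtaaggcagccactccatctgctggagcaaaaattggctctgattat
HOXC-16: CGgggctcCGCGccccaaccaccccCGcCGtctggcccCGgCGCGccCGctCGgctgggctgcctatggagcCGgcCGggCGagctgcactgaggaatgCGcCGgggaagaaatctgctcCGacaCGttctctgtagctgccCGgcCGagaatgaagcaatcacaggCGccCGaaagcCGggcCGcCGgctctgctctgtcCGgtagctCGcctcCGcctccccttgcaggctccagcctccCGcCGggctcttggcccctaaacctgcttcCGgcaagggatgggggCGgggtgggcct
HOXD-17: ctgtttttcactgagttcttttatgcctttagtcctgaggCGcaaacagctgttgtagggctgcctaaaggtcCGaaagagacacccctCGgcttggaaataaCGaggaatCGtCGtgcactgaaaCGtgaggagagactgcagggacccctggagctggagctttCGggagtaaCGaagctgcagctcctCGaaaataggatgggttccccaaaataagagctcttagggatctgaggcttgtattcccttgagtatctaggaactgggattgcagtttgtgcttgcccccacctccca

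HOX REs were rich in GC and CpG, and poor in the SOX core. Their median GC content was 61.8% against 48.1% over all REs, and 44 of 68 (64.7%) lay within 1 kb of an annotated transcript start, against 24.7% of all REs. A SOX core was found in 22 of 68 HOX REs (32.4%) and in 49.6% of all REs. Among REs of the most common width, which are equally long, the shares were 12 of 54 (22.2%) and 46.9%. It was found in 5 of 17 anterior REs, 4 of 19 central and 13 of 32 posterior REs, where anterior means paralog groups 1 to 4, central 5 to 8 and posterior 9 to 13. The motif TGATNNAT, bound by PBX and HOX proteins together, was in 9 of 68 HOX REs (13.2%) and 19.6% of all REs. Of the 7 REs called at 500 nM, HOXA-5 and HOXD-17 held a SOX core, and that of HOXD-17 lies outside the stretch shown. These are matches of letters and not measurements of binding.

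REs were unevenly spread over the clusters. The HOXA cluster on chromosome 7 held 21, HOXB on chromosome 17 held 11, HOXC on chromosome 12 held 17 and HOXD on chromosome 2 held 19. By annotation, 33 lay in the flank of the gene to which they were assigned, 22 in an intron or alternative transcript, 10 in a coding exon and 3 in an untranslated region. Each RE was assigned to the HOX gene with the nearest canonical start among those whose body or flank held it, and 36 of 68 could have been given to more than 1 gene, since several HOX genes as annotated run across their neighbours. HOXA6, HOXB1 and HOXB4 received no RE. Only 17 of 38 genes had an RE centred within 1 kb of their canonical start. Among anterior genes these were HOXA4, HOXD1 and HOXD4, and the other anterior genes had none.

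Promoter REs of HOX genes were weakly accessible at full SOX9. Their mean levels at 0 nM ran from 1.77 CPM per kb at HOXD4 to 5.65 at HOXD13, with a median of 3.51, where the median of the 37377 REs within 1 kb of any start was 11.5. All 17 stood below the 30th percentile of those REs: HOXD4 at 3.37%, HOXB9 (1.95 CPM per kb) at 5.06%, HOXA5 (2.07) at 6.41%, HOXA4 (2.35) at 9.14% and HOXD1 (2.43) at 9.83%. The best of them belonged to posterior genes, which act in limbs, genital region and tail: HOXD13 at 29.6% and HOXA13 (5.62 CPM per kb) at 29.5%, beside HOXB5 (5.57) at 29.3%. None of the 17 passed the test at 500 nM, where 15.2% of all REs within 1 kb of a start did. The log2 fold changes of the 17 at 500 nM ran from -0.13 to 0.34 with a lowest adjusted p = 0.242 (edgeR quasi-likelihood test, Benjamini-Hochberg over all REs).

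The starts of HOXA2, which had no RE, and of HOXA13, where HOXA-21 lies, are shown with CpG in capitals, as the ends of the HOXA cluster. RefSeq promoter sequences (GRCh38.p14, minus strand, 300 bases around the start) were matched by symbol for 20 of the 38 genes. The HOXA2 promoter (chr7:27102634-27102933) held 11 CpG and the HOXA13 promoter (chr7:27200042-27200341) 44, and the median was 22 over the 27 HOX promoters and 14 over all 35116 promoters of this length. In the HOXD cluster the anterior HOXD1 promoter held more CpG (36) than that of the posterior HOXD13 (24).
HOXA2: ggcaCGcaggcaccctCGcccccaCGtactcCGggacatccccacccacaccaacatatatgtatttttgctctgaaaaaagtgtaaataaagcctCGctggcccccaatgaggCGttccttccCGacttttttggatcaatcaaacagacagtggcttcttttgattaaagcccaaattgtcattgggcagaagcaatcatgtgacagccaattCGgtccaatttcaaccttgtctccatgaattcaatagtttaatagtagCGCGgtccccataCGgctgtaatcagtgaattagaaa
HOXA13: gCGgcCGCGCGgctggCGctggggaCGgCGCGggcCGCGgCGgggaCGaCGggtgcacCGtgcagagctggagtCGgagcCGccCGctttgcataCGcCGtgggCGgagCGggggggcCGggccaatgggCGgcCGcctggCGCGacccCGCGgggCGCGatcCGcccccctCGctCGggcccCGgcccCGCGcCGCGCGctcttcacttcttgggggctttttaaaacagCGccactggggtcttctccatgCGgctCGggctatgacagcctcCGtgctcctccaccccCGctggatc

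Anterior and posterior HOX REs had like levels at 0 nM. The median anterior RE stood at 3.99 CPM per kb, the median central RE at 4.00 and the median posterior RE at 3.39, and the median of all REs was 4.44. In the 7 samples the median over the 17 anterior REs ran from 2.76 to 4.31, and that over the 32 posterior REs from 3.08 to 4.13, so the ranges overlapped. On the log2 scale, anterior minus posterior medians averaged 0.02 ± 0.11 (SD, n = 7) and were above 0 in 4 of 7 samples. The sign depended on how REs were assigned: the difference was 0.42 ± 0.18 when only REs with the midpoint inside a gene were used (12 anterior and 21 posterior), and -0.16 ± 0.08 when REs went to the gene body nearest to them and REs shared between bodies were left out (22 anterior and 29 posterior), which changes both the assignment and the REs used. Over the 68 REs, Spearman's rho between paralog group and level was 0.02, a description over REs that share the same libraries.

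**Figure D1:**
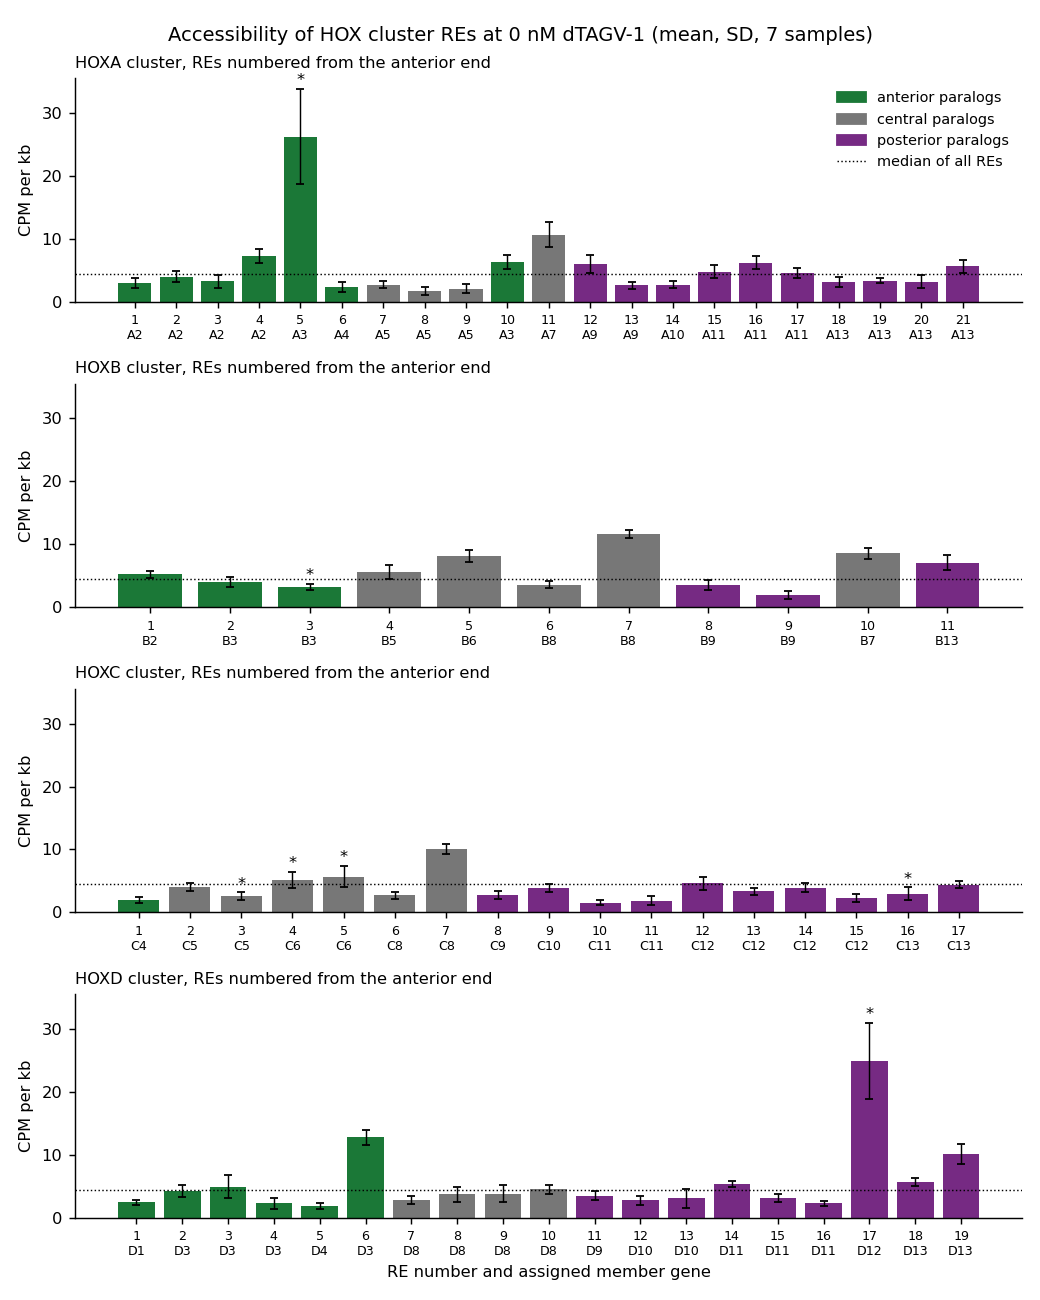
Mean CPM per kb at 0 nM of each HOX RE (bars, SD over 7 samples), numbered from the anterior end of the cluster with the assigned gene below, coloured by paralog class; asterisks mark REs past the threshold at 500 nM and the dotted line is the median of all REs, 4.44. HOXA-5 and HOXD-17 stand far above their neighbours, and most other bars lie near or below the line.

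In all, 7 HOX REs exceeded 10 CPM per kb, and none was centred within 1 kb of the canonical start of its gene. The edge of HOXD-17 lay 966 bp from an annotated start. HOXA-5 (chr7:27109280-27109780), inside the HOXA3 gene as annotated, overlapping the antisense RNA gene HOXA-AS2 and 6.85 kb upstream of the canonical HOXA2 start, was the most accessible. HOXA2 and HOXA3 specify pharyngeal arch and hindbrain identity. The 7 samples of HOXA-5 held 18.3, 19.3, 21.7, 23.3, 29.1, 35.9 and 36.2 CPM per kb, a mean of 26.3 ± 7.56 (SD, n = 7). The high values were those of S9CC13 replicate 6 and S9CC47 replicates 5 and 6, so both clones were found among the high and among the low samples. Replicate 6 of both clones belongs to differentiation batch R6, so the high samples came from batches R5 and R6 and the low ones from other batches. The part of the batch in this level was not tested. It ranked at the 90.2 percentile of all REs.

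HOXD-17 (chr2:176097488-176098829), 1342 bp wide, lay between HOXD13 and HOXD12, 1.64 kb upstream of the HOXD12 start. HOXD12 is a posterior gene of digit and limb patterning. Its samples held 16.9, 19.5, 23.0, 24.1, 25.5, 30.8 and 34.4 CPM per kb, a mean of 24.9 ± 6.09, and it ranked at the 89.5 percentile. Next came HOXD-6 of HOXD3 (12.8 ± 1.15), HOXB-7 of HOXB8 (11.6 ± 0.660), HOXA-11 of HOXA7 (10.6 ± 2.01), HOXD-19 of HOXD13 (10.1 ± 1.53) and HOXC-7 of HOXC8 (10.1 ± 0.801). HOXB-7, HOXA-11 and HOXC-7 stand upstream of central genes, which pattern the thorax. The means of HOXA-5 and HOXD-17 differed by less than the spread of either, as did those of HOXD-19 and HOXC-7.

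The lowest levels were those of HOXC-10 of HOXC11 (1.54 ± 0.372 CPM per kb), HOXA-8 of HOXA5 (1.67 ± 0.620), HOXD-5 of HOXD4 (1.77 ± 0.475), HOXC-11 of HOXC11 (1.86 ± 0.662) and HOXC-1 of HOXC4 (1.93 ± 0.454). They include anterior, central and posterior genes. These neighbours in the order do not differ beyond their spread. All had reads in every library, the smallest count of a HOX RE being 12.

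HOX REs varied between differentiations about as much as others: the median SD of log2 CPM per kb over the 7 samples at 0 nM was 0.31, against 0.35 over all REs. HOXB-7 varied least (0.08). The most variable was HOXD-13, inside HOXD10 as annotated, at 0.67, followed by HOXD-4 (0.54) and HOXD-3 (0.54) of HOXD3, HOXA-9 of HOXA5 (0.54) and HOXB-9 of HOXB9 (0.54). HOXD-13 ran from 1.42 CPM per kb in S9CC13 replicate 13, through 2.00, 2.51, 2.73, 2.77 and 4.03, to 5.90 in S9CC47 replicate 5. At HOXD-3 the high samples were S9CC13 replicates 10, 13 and 14, with 6.97, 7.71 and 5.12 CPM per kb, and the other 4 held 2.72 to 4.52. HOXA-9 and HOXB-9 reached their lowest values, 0.953 and 0.911, in S9CC47 replicates 6 and 8. No RE among the 5 passed the threshold at any dose. They were picked for their spread at 0 nM, which enters every dose comparison and works against a call.

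Full SOX9 depletion for 48 h changed few HOX REs. At 500 nM, 7 of 68 (10.3%) passed the threshold (adjusted p under 0.05, edgeR quasi-likelihood test with differentiation batch as covariate, Benjamini-Hochberg over all REs), where 24.1% of all REs did. One fell, where 13.9% of all REs were called lower, and 6 rose, where 10.2% were called higher. Among REs whose CPM at 0 nM lay within the interquartile range of the HOX REs, 25.0% were called, and among all REs within 1 kb of a start, 15.2%. The median SE of log2 fold change was 0.14 for HOX REs and 0.14 for all REs. The median absolute log2 fold change was 0.13 for HOX REs and 0.19 for all, and the 61 HOX REs that did not pass had values from -0.22 to 0.41. For no HOX RE were the 7 samples at 500 nM wholly apart from the 7 at 0 nM, which held for 4.03% of all REs. Among neural progenitor markers, the mean level of the promoter RE went from 11.9 CPM per kb at 0 nM to 11.5 at 500 nM at PAX6, from 4.33 to 4.23 at SOX1, from 27.1 to 31.7 at LHX2 and from 15.2 to 24.0 at DMRTA2. Promoter REs of the trunk mesoderm markers (4 of 5 with an RE) summed to 52.8 to 95.4 CPM per kb at 0 nM and 64.6 to 98.5 at 500 nM, and those of the CNCC markers to 414 to 537 and 440 to 543. The part of these levels in the changes of HOX REs was not tested.

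**Figure D2:**
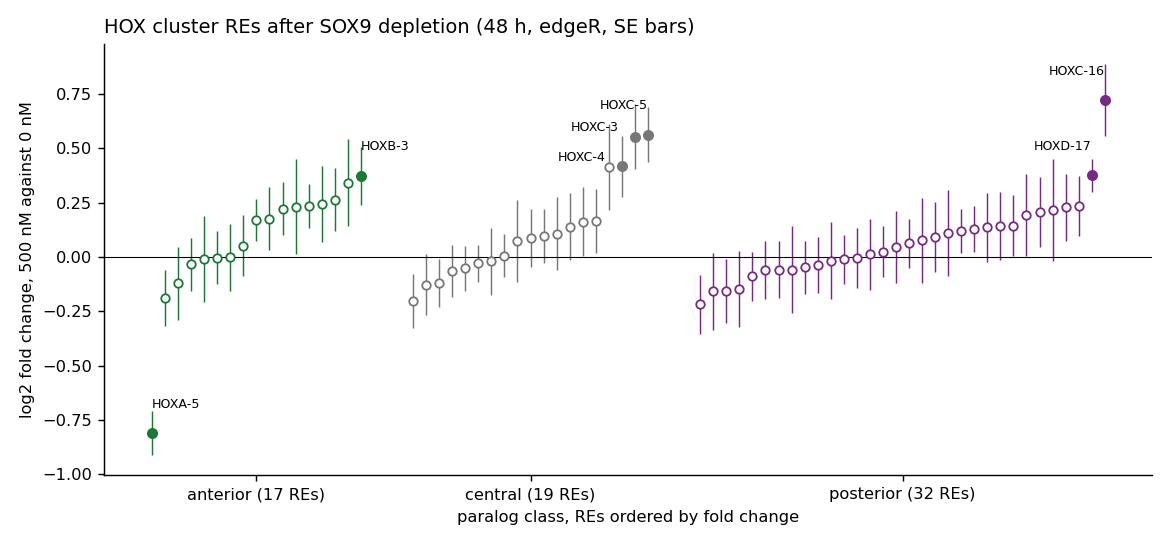
Log2 fold change at 500 nM against 0 nM (48 h, 7 samples each) of the 68 HOX REs with SE bars, grouped by paralog class; filled points passed the threshold. HOXA-5 at -0.81 is the only filled point below 0, and 6 filled points from HOXB-3 (0.37) to HOXC-16 (0.72) stand above 0.

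HOXA-5 fell with SOX9 dose. Across the doses its 7 samples had a lowest, median and highest level of 18.3, 23.3 and 36.2 CPM per kb at 0 nM; 16.6, 19.7 and 32.1 at 0.5 nM; 18.1, 19.2 and 30.8 at 1.6 nM; 13.7, 15.6 and 29.3 at 5 nM; 10.5, 15.5 and 23.8 at 16 nM; and 8.06, 13.8 and 22.7 at 500 nM. The ranges overlapped at each dose, but within a replicate the level at 500 nM was below that at 0 nM in 7 of 7, by 0.46 to 1.26 on the log2 scale. The log2 fold change was -0.15 ± 0.07 (SE) at 0.5 nM and -0.14 ± 0.07 at 1.6 nM, neither past the threshold (adjusted p = 1.00 for both, edgeR). It was -0.46 ± 0.09 at 5 nM (adjusted p = 0.00717), -0.66 ± 0.09 at 16 nM (2.23e-05) and -0.81 ± 0.10 at 500 nM (1.01e-06, edgeR), which left 0.570 of the level at 0 nM. It lost its call under none of the 14 alternative settings at 500 nM, where its values ran from -0.85 to -0.73.

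The 6 REs called higher came from all 3 classes, and 4 of them from the HOXC cluster. HOXC-16 (chr12:53939601-53940101), 1.02 kb downstream of the canonical start of HOXC13, a posterior gene of hair and nail, had a lowest, median and highest level of 1.72, 2.97 and 4.58 CPM per kb at 0 nM and 3.17, 4.54 and 7.01 at 500 nM. The groups overlapped, and the level was higher at 500 nM in 7 of 7 replicates (log2 fold change 0.72 ± 0.17, adjusted p = 0.00202, edgeR). HOXC-5 (chr12:54017726-54018226) and HOXC-4 (chr12:54018231-54018731) are adjacent and lie within HOXC6 as annotated, 10.5 and 9.96 kb upstream of its canonical start but nearer to the start of HOXC8 (8.99 and 9.50 kb). HOXC6 is a central gene of the thorax.

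HOXC-5 held 3.34, 5.40 and 8.61 CPM per kb (lowest, median, highest) at 0 nM and 5.38, 8.46 and 10.6 at 500 nM, a log2 fold change of 0.56 ± 0.13 (adjusted p = 0.00158, edgeR). HOXC-4 held 2.95, 5.24 and 6.42 at 0 nM and 5.29, 6.17 and 9.11 at 500 nM, a log2 fold change of 0.42 ± 0.14 (0.0310). Both were higher in 7 of 7 replicates with overlapping groups. HOXC-3 (chr12:54031095-54031595), 1.71 kb upstream of HOXC5, went from 1.94, 2.31 and 3.36 to 2.61, 3.79 and 4.63 CPM per kb, a log2 fold change of 0.55 ± 0.15 (0.00776, edgeR).

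Outside HOXC, HOXD-17 held 16.9, 24.1 and 34.4 CPM per kb at 0 nM and 26.4, 30.8 and 37.0 at 500 nM, higher in 7 of 7 replicates by 0.08 to 0.64 on the log2 scale (fitted 0.37 ± 0.08, adjusted p = 0.000493, edgeR). HOXB-3 (chr17:48585289-48585789), inside HOXB3, an anterior gene of the hindbrain and pharyngeal arches, went from 2.70, 2.99 and 3.96 to 3.53, 3.92 and 5.28 CPM per kb (log2 fold change 0.37 ± 0.13, adjusted p = 0.0417, edgeR). HOXB-3 lost its call in 6 of 14 alternative settings and HOXC-4 in 3 of 14, and the other 4 kept theirs in all 14.

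At intermediate doses HOX REs changed seldom. At 16 nM, 2 of 68 passed, where 16.2% of all REs did: HOXA-5, lower as 9.12% of all REs were, and HOXD-17, higher (0.27 ± 0.08, adjusted p = 0.0174, edgeR) as 7.12% were. With the replicate number as a block, 5 passed at 16 nM, the further ones being HOXC-16 (log2 fold change 0.46, adjusted p = 0.0197), HOXB-1 of HOXB2 (-0.27, 0.0474) and HOXA-18 of HOXA13 (-0.46, 0.0304, edgeR). The share of all REs called with that block is not given, so this count cannot be set against it. At 5 nM only HOXA-5 passed, where 5.32% of all REs did. Without replicate 6 of S9CC47, whose 5 nM library stood apart, HOXD-17 passed as well (log2 fold change 0.20, adjusted p = 0.00214, edgeR). No HOX RE passed at 1.6 nM, where 0.0383% of all REs did, or at 0.5 nM, where the share of all REs was 0%. At an unadjusted p under 0.05, 2 and 1 of the 68 passed at these doses with edgeR, and DESeq2 called 0 at both.

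**Figure D3:**
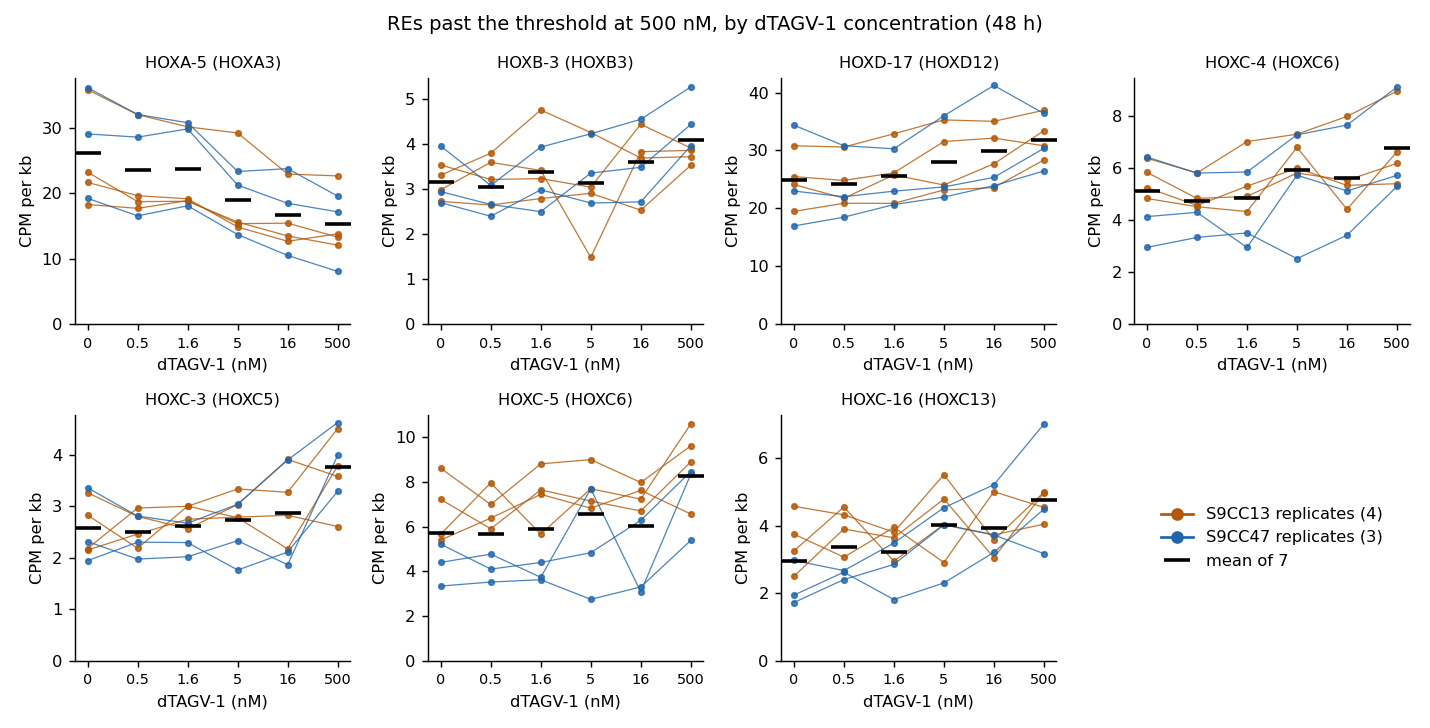
CPM per kb of the 7 REs past the threshold at 500 nM in each SOX9-tagged sample (points, lines join a replicate; black dashes are means of 7) against dTAGV-1 concentration in nM, on an axis with equal steps. HOXA-5 descends from a mean of 26.3 to 15.2, while HOXC-3 (2.58 to 3.77) and HOXC-5 (5.69 to 8.26) have their highest mean at 500 nM.

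At 500 nM the median change of anterior REs lay slightly above that of posterior REs. The median log2 change per replicate over anterior REs minus that over posterior REs averaged 0.11 ± 0.07 (SD, n = 7) and was above 0 in 6 of 7 replicates. It was 0.07 ± 0.10 and above 0 in 4 of 7 when anterior meant paralog groups 1 to 3, 0.14 ± 0.14 and above 0 in 5 of 7 with midpoints inside a gene, 0.10 ± 0.09 after correction for GC content, and 0.15 ± 0.07 without HOXA-5, a setting chosen after seeing the data. In calls, 2 of 17 anterior REs passed (1 lower, 1 higher), 3 of 19 central (all higher) and 2 of 32 posterior (both higher). At 16 nM the anterior median was below 0 in 7 of 7 replicates, from -0.16 to -0.01, and at 500 nM it was above 0 in 7 of 7, from 0.00 to 0.25. The median change over all 68 REs at 16 nM was -0.05, and 0.00 after correction for GC content, so its sign at that dose depended on the correction. All doses were compared with the same 0 nM samples. Spearman's rho between paralog group and log2 change at 500 nM over the 68 REs was -0.15, again a description only.

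**Figure D4:**
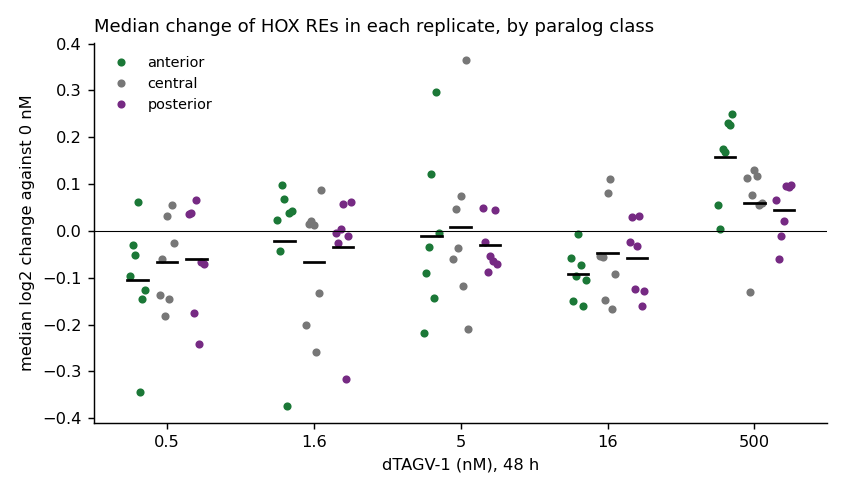
Median log2 change against 0 nM over the anterior (17), central (19) and posterior (32) HOX REs in each of the 7 replicates (points; short lines are means) at each dTAGV-1 concentration. All anterior points lie below 0 at 16 nM (-0.16 to -0.01) and above 0 at 500 nM (0.00 to 0.25), and the other classes straddle 0 at each dose.

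HOXA-5 had fallen by 3 h. With vehicle its SOX9-tagged samples held 34.9 and 32.7 CPM per kb, after 3 h of 500 nM 18.0 and 19.9, and after 24 h 14.9 and 19.0. In WT cells it held 29.7 and 28.7 with vehicle, 29.3 and 30.5 at 3 h, and 33.6 and 30.0 at 24 h. The log2 fold change in tagged cells was -0.90 ± 0.12 at 3 h (adjusted p = 2.77e-05) and -1.06 ± 0.12 at 24 h (2.71e-06, edgeR). Tagged minus WT effects were -0.96 ± 0.18 at 3 h (adjusted p = 0.00126) and -1.21 ± 0.18 at 24 h (6.08e-05, edgeR interaction term). It was the only HOX RE to pass in tagged cells at 3 h, where 8.34% of all REs did, and the only one whose 3 h effect differed between genotypes, where 5.20% did.

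At 24 h in tagged cells 4 HOX REs passed, where 14.6% of all REs did: HOXA-5 fell (9.93% of all REs were called lower), and HOXC-5, HOXC-4 and HOXD-17 rose (4.70% were called higher). HOXC-5 held 3.24 and 3.11 CPM per kb with vehicle, 4.03 and 4.89 at 3 h and 4.67 and 7.47 at 24 h (log2 fold change at 24 h 0.84 ± 0.21, adjusted p = 0.00878, edgeR). HOXC-4 held 3.09 and 3.76, then 2.93 and 4.62, then 4.58 and 7.47 (0.73 ± 0.20, 0.0168). HOXD-17 held 13.9 and 17.5, then 17.4 and 20.1, then 19.7 and 21.4 (0.34 ± 0.09, 0.0108). The vehicle and 24 h samples of each did not overlap, but 2 samples per group separate easily. The REs were also picked for passing, and the share of all REs without overlap is not given. DESeq2 called only HOXA-5 and HOXC-5 of the 4. Offsets for GC content left HOXA-5, HOXC-5 and HOXC-4, and moved the median over all 68 REs from 0.12 to -0.01. Leaving out the tagged samples of R4 or R5 leaves no tagged replicate, and the spread then comes from WT samples. The log2 fold change of HOXA-5 at 24 h was -0.86 without R4 and -1.29 without R5. When differentiation was left out of the model, none passed at 3 h or 24 h.

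**Figure D5:**
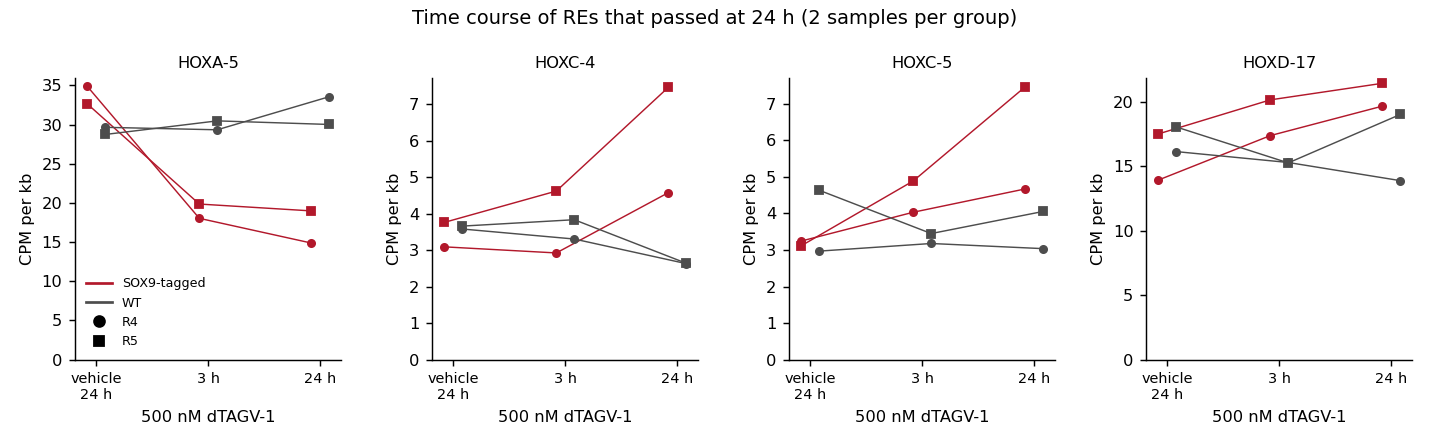
CPM per kb of the 4 REs past the threshold at 24 h after 24 h of vehicle and after 3 h and 24 h of dTAGV-1 at 500 nM, in SOX9-tagged (red) and WT (grey) samples of differentiations R4 (circles) and R5 (squares), axes from 0. HOXA-5 drops by 3 h in both red lines, from 34.9 and 32.7 to 18.0 and 19.9, and the grey lines stay between 28.7 and 33.6.

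WT cells gave no HOX call. At 500 nM for 48 h, 0 of 68 passed, where 0.303% of all REs did; 1 had an unadjusted p under 0.05 with edgeR, namely HOXD-17 (-0.16 ± 0.07, adjusted p = 0.518), and DESeq2 called 0. HOXA-5 held 18.3 and 30.7 CPM per kb at 0 nM and 16.3 and 29.8 at 500 nM in WT cells. At 3 h and 24 h in WT cells 0 passed, against 0% of all REs, with 4 and 0 at an unadjusted p under 0.05 and 0 by DESeq2. HOXC-4 in WT cells held 3.58 and 3.66 with vehicle and 2.63 and 2.64 at 24 h. Its 24 h effect was larger in tagged than in WT cells by 1.16 ± 0.29 (adjusted p = 0.0116, edgeR interaction term), and together with HOXA-5 it made 2 of 68 HOX REs with a genotype difference at 24 h, where 6.73% of all REs had one.

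Between tagged and WT cells without dTAGV-1, 0 of 68 HOX REs passed, where 0.950% of all REs did. The fit held R4 and R5 after 24 h of vehicle and R8 after 48 h at 0 nM. By title its tagged samples were of S9CC13 in R4 and R5 and of S9CC47 in R8, so clone and time cannot be told apart. The median SE of the fit over HOX REs was 0.18, so small differences could go uncalled. At an unadjusted p under 0.05 there were 6, all lower in tagged cells, and DESeq2 called 0. The median log2 difference over the 68 REs was -0.11, and -0.04 after correction for GC content. Without differentiation R4, HOXC-12 of HOXC12 (-0.83, adjusted p = 0.00973) and HOXA-12 of HOXA9 (-0.58, 0.0285, edgeR) passed.

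Loci of other factors around the HOX genes were read from lists chosen for their roles. Of the 101 REs of 16 facial homeobox genes (MSX, DLX, PRRX, ALX, PITX and BARX1), which shape the face where HOX genes are silent, 29 passed at 500 nM, 5 lower and 24 higher. Their median level was 12.4 CPM per kb, beside 3.76 for HOX REs, with a like median GC content of 60.1%. Of the 110 REs of 8 TALE cofactors, homeodomain proteins that bind DNA together with HOX proteins, 36 passed, 28 lower and 8 higher, and 24 of the lower ones were at PKNOX2. The RE of this list with the lowest p was at PKNOX2 and changed by -2.41 ± 0.12 (adjusted p = 6.33e-14, edgeR). Of the 150 REs of 10 upstream regulators of HOX transcription, 47 passed, 23 lower and 24 higher. At CYP26B1, an enzyme that degrades retinoic acid, 2 of 8 REs fell, the stronger call by 2.26 ± 0.13 on the log2 scale (adjusted p = 6.90e-13, edgeR). At RARB, a retinoic acid receptor, 6 of 64 fell and 15 rose. EGR2, a hindbrain regulator of anterior HOX genes, had 2 of 2 REs higher, the strongest call at 0.29 ± 0.07. All called REs were lower at CDX1 (3 of 4 REs), CDX2 (1 of 4), CYP26A1 (2 of 4) and RARG (3 of 9). At RARA 2 of 15 fell and 1 rose, at ALDH1A2 4 of 38 fell and 6 rose, and CYP26C1 had no call. These shares of called REs, and the 10.3% of HOX REs, stand beside the 24.1% of all REs and were not tested against each other.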

How the data were processed

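ATAC-seq counts of 58 samples were used. Per the study's methods the authors trimmed adapters, aligned read pairs to hg38 with Bowtie2 2.4.1, removed duplicate, mitochondrial and low-quality reads with SAMtools 1.10, called summits with MACS2 2.2.7.1, merged reproducible summits into 151457 REs and deposited whole-number counts per RE and sample, not normalized. Counts therefore depend on 1 shared RE set, and an unmerged or weak site goes uncounted.

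The HOX genes, lists and comparisons were chosen with earlier results of these data known. RE ends were checked against hg38, and RE start positions are printed counted from 1. Genes came from GENCODE release 44. edgeR 4.0.16 in R 4.3.3 (TMM, quasi-likelihood test, all 151457 REs, no filter, threshold 0.05 after Benjamini-Hochberg) compared each dose with 0 nM with differentiation batch as covariate; time-course, WT and genotype fits had the differentiation as a block. Levels are TMM-scaled CPM divided by RE length in kb. Alternatives were DESeq2 1.42.0, RLE size factors, filterByExpr, GC offsets, other RE assignments, each replicate left out and a replicate block. Named REs are those past the threshold in any comparison, promoter REs, the 5 highest and 5 lowest levels and the 5 largest SDs; others are named where chosen after their values were seen. Calls were tested on simulated data.

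Replicate numbers are shared across doses, and each marks a clone and differentiation per the labels. Deviations from the group means correlated between same-numbered samples at 0 nM and each dose in every pair (0.118 to 0.945 over 7 pairs a dose), so the numbers pair the samples. Where p-values come from 2 samples per group, differentiation was a block. They then measure how far the effect varied between 2 differentiations, with the spread estimate moderated across REs, and not the spread of levels between differentiations. The lowest reduced chi-square among 134 pairs of replicates was 2.60, so no pair differed by counting error alone. This value cannot tell whether libraries of a pair came from the same cells. Titles of S9CC13 replicate 14 at 0 and 0.5 nM go against the concentration label but match the SOX9 level label; titles were used, with the exchange as an alternative. Time-course columns of tagged R5 name the other clone than the titles. HOX genes not listed here were not analysed here. Some genes of the comparison and marker lists are not reported here, and list counts leave them out. Intervals and SEs cover counting and replicate error only.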

Additional observations from a re-analysis of the deposited data

Results flagged for a closer look

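Of 60 groups of 7 samples examined for a sample far from the rest (7 REs and 3 class medians at 6 doses), 2 held one, and chance gives about 1 in 20. Both were S9CC47 replicate 8 at 5 nM: HOXC-4 stood at 2.51 CPM per kb, where the other 6 ran from 5.72 to 7.30, and the median over central HOX REs stood at 2.77, where the others ran from 4.33 to 5.24. The same replicate had the lowest HOXC-4 level at 0 nM (2.95) too.

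The effect of 500 nM dTAGV-1 differed between SOX9-tagged and WT cells at HOXA-5 after 3 h (-0.96 on the log2 scale) and after 24 h (-1.21), and at HOXC-4 after 24 h (1.16), by the interaction term of an edgeR fit over all REs, a fit added after the data were seen. At HOXC-4 the WT samples were lower at 24 h than with vehicle (-0.45 ± 0.22), a change that was not past the threshold, and this is a part of the difference.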

How the results depend on the processing

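Of the recomputed counts and class differences, 94 stayed within 1.5 times the reported count or within 1 SD of the reported difference and 14 did not, and of the recomputed fold changes of the 7 REs called at 500 nM, 89 kept their call, 9 lost it and 0 changed sign. Many of the 94 were counts of 0 that stayed 0, at 1.6 and 0.5 nM, in WT cells and between genotypes. At 0.5 nM, and in WT cells at 3 h and 24 h, the main fit called no RE at all. Class differences scaled by RLE, which could not move, are among the 94 too. Such rows are no measure of robustness. With the replicate block the count at 16 nM was 5 in place of 2 and at 500 nM 8 in place of 7; with the block and GC offsets the count at 5 nM was 3 in place of 1; the block changed no other count by over 1.5 times. Counting only REs with the midpoint inside a gene gave 1 at 16 nM. The 5 nM count was 2 without S9CC47 replicate 6. Without any block the counts at 3 h and 24 h in tagged cells were 0 and 0, in place of 1 and 4. At 24 h DESeq2 gave 2. Counts without R4 or R5 in the time course are not given, since those fits hold no tagged replicate. Leaving out R4, the genotype comparison gave 2 in place of 0. At 500 nM leaving out a replicate gave 5 to 7. Anterior minus posterior level was 0.18 with groups 1 to 3 as anterior, -0.16 with REs given to the nearest gene body and shared REs left out, and 0.42 with midpoints inside genes, and the change at 500 nM was 0.20 without REs near a start and 0.07 with groups 1 to 3; without the highest anterior RE the level difference was -0.02; scaling by RLE cannot move either. The cause of these shifts was not tested, and shares of all REs called under the alternative settings are not given. HOX REs had a median of 93 counts per library and a median SE of 0.14 on the log2 scale at 500 nM, which bounds the changes detectable at this depth.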
